A study of Drosophila melanogaster with 2 samples.

Results

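Deep intronic peaks are the E(spl)m3-HLH binding peaks whose summit lies inside a protein-coding gene, outside every annotated exon, and more than 5000 bp from the nearest annotated transcription start site (TSS) of any gene. Of the 5701 peaks that passed the authors' irreproducible discovery rate (IDR) threshold, a limit set from how alike replicates rank their peaks, 627 (11.0%) met this rule. They lay in 351 different genes, here called host genes. The bases of the genome that meet the same rule, here called accepted sequence, came to 27.6 Mb and belonged to 1760 of 13945 protein-coding genes, the eligible genes.

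The peaks come from chromatin immunoprecipitation sequencing (ChIP-seq) of whole Drosophila melanogaster embryos of mixed sex, collected between 0 and 24 h of age. All embryos were from a single transgenic line in which E(spl)m3-HLH carries a C-terminal GFP, and per the protocols the chromatin, sonicated to 200 to 800 bp, was precipitated with an antibody against GFP, although the antibody entry of the labels names E(spl)m3-HLH. The series has 1 group with 2 biological replicates, numbered 2 and 3, of 1 technical replicate each, so no treated and untreated embryos are compared. The control library used by the authors was not analysed here. A whole embryo mixes many tissues and stages, so binding in fewer cells and weaker binding per cell cannot be told apart, and the files hold no expression values with which to check the tissue.

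E(spl)m3-HLH belongs to the basic helix-loop-helix (bHLH) proteins of the Enhancer of split complex. The genes of this complex are switched on by Notch signalling, and their proteins repress transcription with the corepressor Groucho, above all in the choice between neural and epidermal fates. Proteins of this family bind E-box and N-box sequences. Long introns of Drosophila developmental genes are known to hold many enhancers, the DNA stretches that set where and when a gene is transcribed.

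The windows at the summits of the strongest deep intronic peaks show the base composition described further on. They are printed from the dm6 genome assembly, plus strand. The first is a wider window in the intron of Gug, which encodes the Atrophin corepressor, with the summit and the 50 bases to each side in capitals. The next windows hold the summit and 50 bases to each side, and capitals mark unbroken runs of at least 6 A or T. They come from CG32486, from Hr4, a nuclear receptor gene, and from JIL-1, which encodes a histone H3 kinase.
Gug, chr3L:8458211-8458509: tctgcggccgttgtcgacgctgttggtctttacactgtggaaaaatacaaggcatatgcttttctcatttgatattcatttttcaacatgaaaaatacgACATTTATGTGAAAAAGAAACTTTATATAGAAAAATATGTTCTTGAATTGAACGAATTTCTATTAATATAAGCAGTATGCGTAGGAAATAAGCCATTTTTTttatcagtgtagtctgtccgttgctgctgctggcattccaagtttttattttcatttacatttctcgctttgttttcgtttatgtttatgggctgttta
CG32486, chr3L:3060752-3060852: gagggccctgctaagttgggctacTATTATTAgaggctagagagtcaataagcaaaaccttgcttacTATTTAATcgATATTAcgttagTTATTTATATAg
Hr4, chrX:1963869-1963969: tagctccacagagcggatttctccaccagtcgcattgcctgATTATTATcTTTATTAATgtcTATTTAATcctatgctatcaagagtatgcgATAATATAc
JIL-1, chr3L:11084745-11084845: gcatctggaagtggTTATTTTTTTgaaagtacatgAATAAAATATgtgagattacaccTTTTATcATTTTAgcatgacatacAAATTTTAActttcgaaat

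In the windows of other strong peaks, capitals mark a motif instead. They show, on either strand, the GATA sequence AGATAA at the summit in tara, a gene of transcriptional and cell-cycle control. In fz, the Wingless and planar polarity receptor gene, they show the STAT sequence TTCNNNGAA. In simj, which encodes a subunit of the NuRD chromatin remodelling complex, the homeodomain core TAATTA occurs 2 times. In Hr4 they show the E-box CATATG. These 4 motifs had the highest ratio of summit windows to all accepted windows among motifs found at 2% or more of the summits. For CATATG this ratio was only 1.06, at 3.03% of summits against 2.87% of accepted windows. Windows 300 bp to the left and right of the summit held CATATG at 3.03% and 4.78%, so it was not more frequent at the summits.
tara, chr3R:16236950-16237050: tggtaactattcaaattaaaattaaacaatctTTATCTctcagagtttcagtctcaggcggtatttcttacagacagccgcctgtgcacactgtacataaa
fz, chr3L:14304025-14304125: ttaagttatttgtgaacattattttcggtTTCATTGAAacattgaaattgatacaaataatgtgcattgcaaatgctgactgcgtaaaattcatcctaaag
simj, chr3L:10682945-10683045: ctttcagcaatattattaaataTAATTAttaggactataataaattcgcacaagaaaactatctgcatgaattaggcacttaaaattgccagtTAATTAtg
Hr4, chrX:1947694-1947794: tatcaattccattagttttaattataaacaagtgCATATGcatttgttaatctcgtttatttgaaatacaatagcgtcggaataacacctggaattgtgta

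The strongest deep intronic peak lay in a nuclear receptor gene, and those next in rank lay in genes of varied function. The signal is the enrichment score the authors' peak caller gave each peak, and each of the 3 lists (pooled reads, replicate 2, replicate 3) has its own scale. The first place went to a peak on 2R at 10219890 to 10220278, in Hr3, an ecdysone-responsive nuclear receptor gene, with signals of 1316 (pooled), 785 (replicate 2) and 538 (replicate 3). Its summit also lies in introns of the overlapping genes CG12912 and CG46321, the single peak with 3 hosts. The peak of Gug followed with 1125 in the pooled list, 651 for replicate 2 and 472 for replicate 3. The peak of CG32486 had 1078, 680 and 408 in the same order of lists. Among all 5701 peaks these took ranks 57, 89 and 102, so the very top of the list belonged to peaks of other classes.

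Several more of the 20 strongest lay in genes of transcription and chromatin, given here without a count or test of such genes. The tara peak, on 3R at 16236745 to 16237139, had a signal of 1016 in the pooled list, 689 for replicate 2 and 329 for replicate 3. The simj peak, on 3L at 10682730 to 10683235, had 875, 577 and 291. The JIL-1 peak had 710, 451 and 258, that of Psc, a Polycomb repressive complex gene, had 664, 394 and 271, and that of gpp, which encodes the Dot1 histone H3 methyltransferase, had 531, 344 and 183. Each of these peaks was listed in both replicates.

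The remaining places went to genes of various roles. The fz peak, on 3L at 14303911 to 14304210, had a pooled signal of 773, with 439 in replicate 2 and 338 in replicate 3. Hr4 held a pair of peaks on X at 767 and 739 in the pooled list, 432 and 448 in replicate 2, and 334 and 302 in replicate 3. N, the Notch receptor gene, had a peak on X at 3162376 to 3162690 with 578, 348 and 235. The order of the Hr4 peaks differed between the replicates, while all 3 peaks were far above the members' median in every list. Further peaks of the 20 lay in rdx (702), which encodes a Cullin adaptor of Hedgehog signalling, sbb (691 and 547), a zinc finger gene, Lrch (641), crp (638), which encodes a bHLH factor, Eip75B (550), a nuclear receptor gene, Raf (549), a kinase of receptor tyrosine kinase signalling, and wdb (538), a phosphatase subunit gene, all in pooled signal.

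As a class, deep intronic peaks were of moderate strength. Their pooled signal ran from 108 to 1316, with a median of 166 and quartiles of 129 and 245. The median was 192 for the 1342 intronic peaks at 500 to 5000 bp from a TSS (near-start intronic), 175 for the 843 intergenic peaks, 211 for the 2707 promoter peaks within 500 bp of a TSS, and 193 for all 5701. The order of these medians was the same in each replicate's own list. In replicate 2 the medians were 104 for deep intronic, 107 for intergenic, 120 for near-start intronic and 136 for promoter peaks, and in replicate 3 they were 64.8, 68.9, 74.3 and 78.4. The ranges of the classes overlap widely, and no test was made, since peaks of the same libraries are not replicates.

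**Figure D1:**
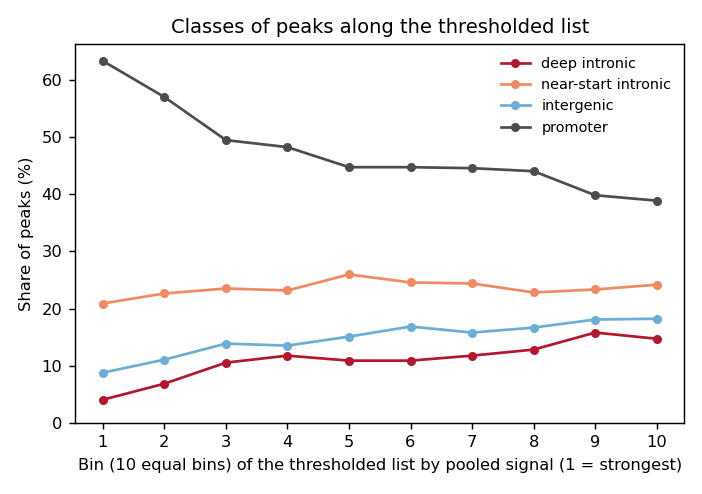
Share of 4 peak classes (y axis, percent) in 10 equal bins of the thresholded list by pooled signal (x axis, 1 the strongest). Deep intronic peaks made up 4.04% of bin 1 and 14.7% of bin 10, while the promoter share was highest in bin 1.

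The share of deep intronic peaks rose along the list of peaks sorted by signal. With the list divided into 10 equal bins, it was 4.04% in the strongest, 6.84% in the next, between 10.5% and 12.8% in bins 3 to 8, and 15.8% and 14.7% in the last 2. Only 2 members were among the 100 strongest peaks and 19 among the 500 strongest. Below the threshold the share was higher again, at 17.7% of the remaining pooled peaks (3564 peaks). Each replicate's own list gave the same pattern, with 10.6% of its strongest 5701 peaks and 17.2% of the rest in replicate 2, and 11.1% and 18.6% in replicate 3.

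Density along introns fell with distance from start sites. Intronic sequence at 500 to 1000 bp from the nearest TSS held 90.7 peaks per Mb (95% Poisson interval 81.9 to 100.2), and sequence at 1000 to 2000 bp held 61.1 (55.4 to 67.3). At 2000 to 5000 bp the density was 41.3 (37.9 to 45.0). Within the deep intronic range it was 32.3 (29.0 to 35.9) up to 10000 bp, 25.2 (21.9 to 28.8) up to 20000 bp and 7.98 (6.18 to 10.1) beyond. Over all accepted sequence it was 22.7 peaks per Mb, close to the 23.1 per Mb of intergenic sequence and below the 55.9 of near-start introns. The intervals cover the counting of peaks only.

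The distance limit cut through a continuous range. The 5 members nearest to it lay in Ork1 (5001 bp, pooled signal 117), Lrch (5010 bp, 641), CG46339 (5016 bp, 129), cv-c (5022 bp, 237) and Pdk (5032 bp, 125). The 5 intronic peaks just short of it lay in CadN (4994 bp, 126), tara (4978 bp, 545), cno (4969 bp, 332), Liprin-gamma (4957 bp, 123) and Nuak (4954 bp, 214). Signals on the 2 sides overlapped.

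Most members sat far from both exons and start sites. Their distance to the nearest TSS had a median of 9211 bp and reached 49806 bp, with 277 (44.2%) beyond 10000 bp and 67 beyond 20000 bp. The nearest exon was a median of 5000 bp away, and the intron around the summit had a median length of 18106 bp. By the lowest intron number over the host's transcripts, 298 summits (47.5%) were in intron 1 and 207 (33.0%) in intron 2, and 77 were in intron 4 or later. The first intron of every transcript spanning the summit held 166 (26.5%). How accepted sequence divides by intron number is not given here. For 367 members (58.5%) the nearest TSS was the host's own, for 153 that of another protein-coding gene and for 107 that of a non-coding gene. Annotated transposable elements held 4 summits, and the share of accepted sequence they cover is not given here.

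Nearly all deep intronic peaks were also present in each replicate's own list. A peak was counted as found when the replicate's own list had a summit within 100 bp. Replicate 2 held 620 of 627 (98.9%, 95% Wilson interval 97.7 to 99.5), beside 98.6% of all thresholded peaks. Replicate 3 held 605 (96.5%, 94.7 to 97.7), beside 97.2% of all. These shares are near the background of the whole list. The thresholded list was itself made from these replicates, so high shares are built in and are no independent check. The median distance between the pooled and the replicate's summit was 6 bp in replicate 2 and 15 bp in replicate 3, 598 members had a summit in both, and none was missing from both.

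The named peaks without a match in a replicate had a summit of that replicate a little farther away than 100 bp. The strongest 5 members without a summit in replicate 3 lay in simj (pooled signal 493), CG43373 (334), sbb (300 and 243) and Meltrin (193). Each had a replicate 3 summit 107 to 178 bp away, with replicate 3 signals of 74.4 to 167. The strongest 5 without a summit in replicate 2 were weaker, in GEFmeso (132), kuz (131), CG33158 (129), px (120) and CG42238 (115), with replicate 2 summits 113 to 206 bp away. All 10 overlapped an interval of the replicate in question, and over all members 0 lacked an overlap in replicate 2 and 1 in replicate 3.

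A stricter comparison used only the strongest 5701 peaks of each replicate. It found 553 members (88.2%) in replicate 2, 529 (84.4%) in replicate 3 and 461 (73.5%) in both. The share in both was 78.8% for near-start intronic, 77.7% for intergenic and 80.0% for promoter peaks. Across the 598 members with both values, replicate signals correlated with a Spearman coefficient of 0.720 and Pearson's r of 0.776 on the log2 scale. Pearson's r was 0.871 for near-start intronic, 0.825 for intergenic and 0.885 for promoter peaks. The points share their pooled call and their libraries, so these coefficients describe the lists and carry no p-value.

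**Figure D2:**
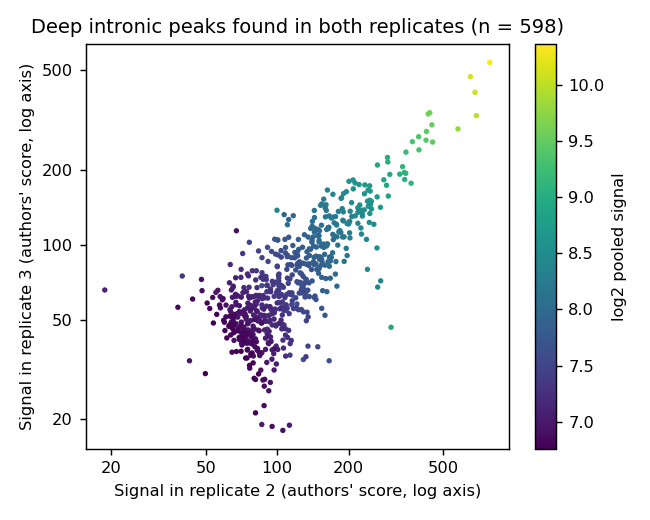
Signal of the 598 deep intronic peaks found in both replicates, replicate 2 on the x axis and replicate 3 on the y axis (authors' score, log axes), with the log2 pooled signal as colour. The 3 peaks of highest pooled signal are high in both replicates, and some strong peaks are not, such as that of CG10283 with 301 in replicate 2 and 46.7 in replicate 3.

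Applying the rule to 1 replicate at a time gave nearly the same genes. The strongest 5701 peaks of replicate 2 alone held 606 deep intronic peaks, of which 551 (90.9%) matched a member. They lay in 340 genes, 324 of them hosts (95.3% of the 340 and 92.3% of the 351). Replicate 3 alone gave 633 deep intronic peaks, 527 of them matched (83.3%), in 354 genes, 317 of them hosts (89.5% of the 354 and 90.3% of the 351).

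Of the 1760 eligible genes, 351 (19.9%) held at least 1 deep intronic peak. A single peak was found in 214 hosts and 2 peaks in 65, while the 137 hosts with 2 or more held 420 of the 627 members (67.0%). Hosts were long, with a median length of 38.4 kb against 19.3 kb for eligible genes without such a peak. Their accepted sequence had a median of 18.6 kb against 4.02 kb. The share of genes with a peak rose from 2.06% at up to 2 kb of accepted sequence to 21.9% at 5 to 10 kb, 38.3% at 20 to 40 kb and 49.7% above 40 kb. Density went the other way in the longest genes, with 43.0 peaks per Mb at 2 to 5 kb, 27.4 at 20 to 40 kb and 14.3 above 40 kb. Host status therefore moves with the amount of sequence on offer, and its part in the comparisons of genes below was not tested beyond the length weighting given there.

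A promoter peak accompanied 113 hosts (32.2%, 95% Wilson interval 27.5 to 37.3), against 25.1% (22.9 to 27.4) of eligible genes without a deep intronic peak and 23.2% of all protein-coding genes. Hosts had a median of 2 distinct start sites and the other eligible genes 1. The part of that difference in the promoter share was not tested.

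The host with most deep intronic peaks was kirre on X, which encodes an immunoglobulin adhesion protein of muscle founder cells. Its 12 peaks had pooled signals of 121 to 276 and spanned 328 kb of a gene of 394 kb, or 5.30 peaks per 100 kb of accepted sequence. In contrast, the 10 peaks of sbb on 2R, at 111 to 691, stood within 17.9 kb of a gene of 79.1 kb, or 28.1 per 100 kb. The 8 peaks of rdx on 3R, at 124 to 702, stood within 18.6 kb (23.4 per 100 kb). The 8 of hth, the homeodomain cofactor of Hox proteins, at 121 to 362, were spread over 108 kb (7.95 per 100 kb). The same number of peaks thus came in both tight groups and wide rows.

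The next hosts were fz with 7 peaks (113 to 773 in pooled signal) and Snoo, a Ski/Sno family corepressor gene, with 7 (129 to 386). SKIP had 6 (119 to 388), as had Antp, a Hox gene (111 to 361), Ten-a, a teneurin adhesion gene (146 to 255), and cv-c (130 to 279). Some of the 6 Antp peaks also lie in the overlapping gene CG46458, which was counted with 4. Among hosts with 5 peaks, tara was densest at 31.0 per 100 kb of accepted sequence, followed by S, the gene of the EGF ligand chaperone Star, at 26.6.

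**Figure D3:**
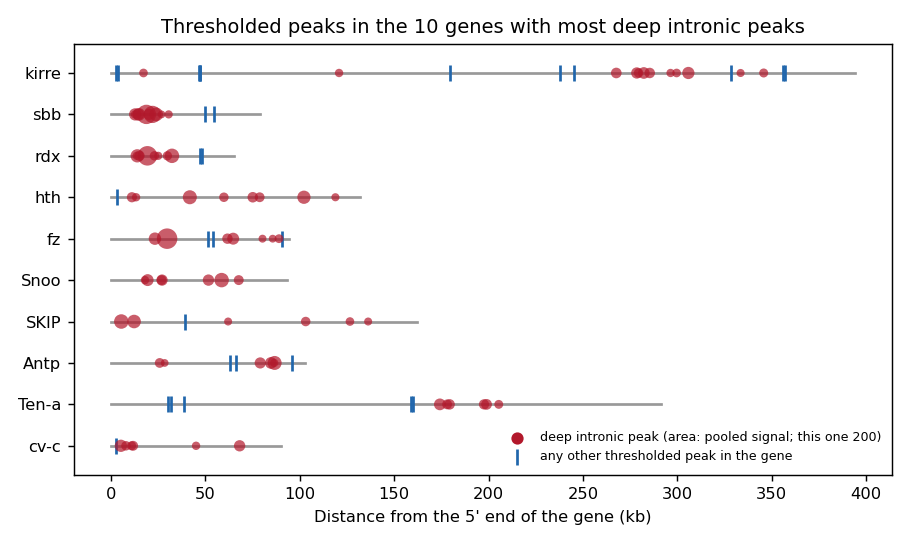
Thresholded peaks along the 10 genes with most deep intronic peaks, by distance from the 5′ end of the gene (x axis, kb). Circles are deep intronic peaks with area in proportion to pooled signal, blue ticks are other thresholded peaks in the gene, and the peaks of sbb and rdx stand close together while those of hth and kirre are spread out.

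Neighbouring members were often close. The median distance between adjacent members of 1 host was 4592 bp, with 38 of 293 such pairs under 1 kb. The closest pairs of sbb, rdx and Snoo had summits 203, 201 and 201 bp apart, so their intervals can overlap. Of all members, 14 adjacent pairs had overlapping intervals, and merging them left 613 separate intervals. Merging summits within 1 kb left 590, so most members were separate sites.

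Each of 16 lists of pathway and family genes held at least 1 host, and each list was read against the 19.9% of all eligible genes and against a length-weighted share. The length-weighted share is what all eligible genes give when weighted to the amounts of accepted sequence found in the list. In the Dpp/BMP and activin list, 5 of 8 eligible genes were hosts, against a length-weighted 19.6%. Dad, the inhibitory Smad, had a pooled signal of 516, with 328 in replicate 2 and 192 in replicate 3. The extracellular regulator cv-2 had 4 peaks, the strongest at 509, 292 and 215, and sog, the BMP antagonist, had 468, 281 and 182. The ligand gene dpp had 300, 171 and 129, and shn, a zinc finger factor gene, had 133 in the pooled list. The receptor genes tkv and babo and the ligand gene Actbeta had none, in 13.9, 1.95 and 1.075 kb of accepted sequence. Of all eligible genes with up to 2 kb of it, 2.06% were hosts, so the last 2 say little.

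In the Wingless list 6 of 9 eligible genes were hosts (66.7%), against a length-weighted 31.3%. With a distance limit of 2000 bp, which makes more genes eligible, the Wingless share was 30.0%. No share of all eligible genes at 2000 bp is given to set beside it. Beside fz, the feedback inhibitor gene nkd had a peak of 261 in the pooled list, 140 for replicate 2 and 119 for replicate 3. The receptor tyrosine kinase gene drl had 215, 108 and 105, and the ligand gene Wnt4 had 195, 100.7 and 90.9. The transcription factor gene pan, the ligand gene Wnt6 and the kinase gene sgg had no deep intronic peak. Their accepted sequence was 19.3, 12.4 and 2.13 kb. In the EGFR list, 5 of 8 were hosts against 28.0%. The strongest were in pnt, the ETS activator of the pathway (411, 241 and 165), ed, an adhesion gene (322, 188 and 140), and S (208, 115 and 88.8). The weak peak in the ligand gene vn (132) had a summit in replicate 2 (122) and none within 100 bp in replicate 3. The genes aop, Egfr and sty had no deep intronic peak, in only 7.17, 3.46 and 2.265 kb of accepted sequence.

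The Notch pathway list had 4 hosts among 11 eligible genes, against a length-weighted 25.5%. Beside the receptor gene N, peaks lay in cwo, an Orange-domain bHLH gene (317 in the pooled list, 189 for replicate 2 and 125 for replicate 3), mam, the Mastermind coactivator gene, with 4 peaks (strongest 217, 100.2 and 105), and kuz, the protease gene, with the weak peak named above (131). The ligand genes Delta and Ser and the glycosyltransferase gene fng had accepted sequence of 13.9, 12.0 and 11.1 kb and no deep intronic peak.

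Ecdysone and nuclear receptor genes had 9 hosts among 15, against a length-weighted 35.8%. Hr4 and Eip75B had 4 peaks each and Hr3 had 1, and the transporter gene E23 had 395 in the pooled list, 209 for replicate 2 and 182 for replicate 3. The receptor gene EcR and the early gene br had 31.6 and 44.0 kb of accepted sequence without a peak, as did Hr38 with 15.3 kb. In the Hox list 4 of 9 were hosts, against a length-weighted 28.2%, with 8 peaks in hth and 6 in Antp at up to 362 and 361. At a distance limit of 10000 bp the Hox share was 80.0% of the genes then eligible. The share of all eligible genes at that limit is not given here. The peaks of Ubx (118) and pb (117) were near the low end of the thresholded list. The genes abd-A, lab and Dfd had none, in 12.8, 5.135 and 4.41 kb of accepted sequence.

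Axon guidance and adhesion genes gave 25 hosts among 49, against a length-weighted 34.8%. Fas3, an immunoglobulin adhesion gene, led with 387 in the pooled list, 249 for replicate 2 and 139 for replicate 3. The netrin gene NetA (331, 206 and 130) had 5 peaks, and the integrin gene mew had 291, 182 and 113. Some of the longest genes held no deep intronic peak, among them the receptor gene Lar (97.0 kb of accepted sequence), the cadherin gene CadN (93.2 kb) and Con (87.8 kb). The CadN peak named above, at 4994 bp from a TSS, fell just short of the limit. Zinc finger and BTB genes had 10 hosts among 25, led after sbb by mamo (390, 242 and 143), against a length-weighted 30.1%. RNA-binding regulators had 9 of 18, against a length-weighted 37.2%, led by how (364, 244 and 123), and their density of 15.2 peaks per Mb was below the 22.6 of all eligible genes. The RNA-binding share was 25% with a distance limit of 10000 bp, again without the share of all eligible genes at that limit. In this list bru3, with 215 kb of accepted sequence, heph with 116 kb and mbl with 94.7 kb had none.

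Ion channel and synapse genes were at the other end. Only 3 of 37 eligible genes (8.11%, 95% Wilson interval 2.80 to 21.3) were hosts, against a length-weighted 27.2%, with 4.89 peaks per Mb against 22.6 for all eligible genes. Their strongest peaks were moderate, in the synapsin gene Syn (198 in the pooled list, 133 for replicate 2 and 65.6 for replicate 3), the calcium channel gene Ca-alpha1T (169, 96.1 and 69.2) and nAChRalpha6 (117, 77.5 and 36.0). The acetylcholine receptor genes nAChRalpha3 and nAChRalpha4 and the potassium channel gene Sh had 50.9 to 66.9 kb of accepted sequence each and no deep intronic peak. The list of homeobox, POU, Pax and Sox factors was also low, at 2 of 24, with peaks in Lim1 (360) and ct (342). Its share of 8.33% had a 95% Wilson interval of 2.32 to 25.8, which includes the length-weighted 22.5%. Both low shares hold for the genes listed only. Hosts outside the lists, found after their values were seen, include the channel genes Ca-beta (pooled signal 245), Elk (132) and Ork1 (117), the neuroligin gene Nlg3 (138), and the homeobox genes NK7.1 (235), lbl (209), Awh (179) and Drgx (126).

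Other lists were small. Genes of cAMP, cGMP and calcium signalling had 3 hosts of 15, led by dnc (251), against a length-weighted 27.3%. Muscle structure genes had 1 of 11 (Zasp52, 237), against 17.1%. The cAMP and muscle lists held 13.0 and 11.8 peaks per Mb, below the 22.6 of all eligible genes. Insulin, TOR and Hippo genes had 3 of 8, led by kibra (370), against 20.2%. Pair-rule and segment polarity genes had 2 of 6 (ptc at 136 and wg at 114), against 16.0%. Altogether 13 of the 16 lists lay above the 19.9% of all eligible genes and 12 above their length-weighted share. In the strongest 2850 peaks, where 9.94% of eligible genes were hosts, the share was 22.4% for axon guidance and adhesion, 20% for zinc finger and BTB, 16.7% for RNA-binding and 2.70% for ion channel and synapse genes. Lists built from known developmental genes are not a sample of long genes.

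**Figure D4:**
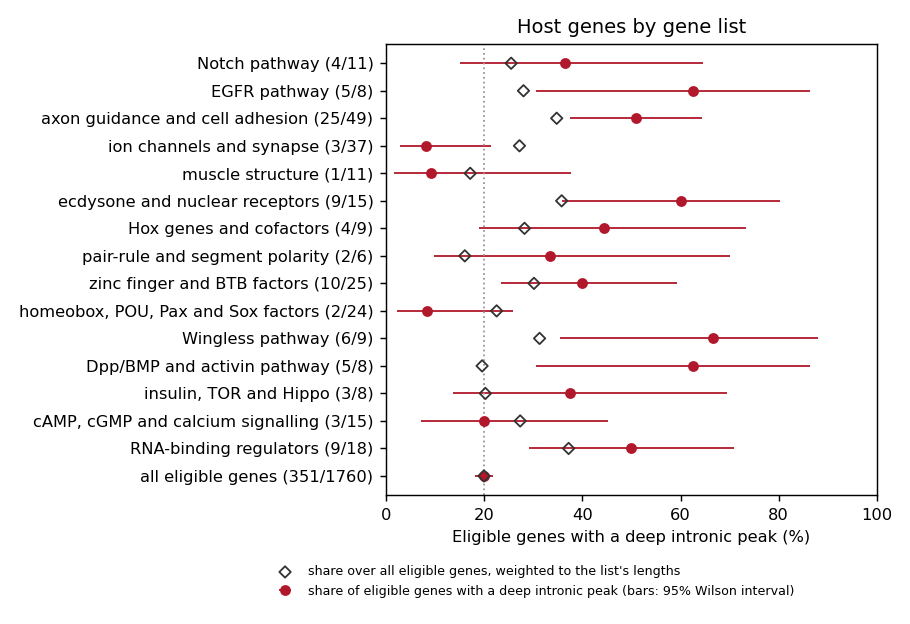
Share of eligible genes with a deep intronic peak by gene list (circles, x axis, percent; bars are 95% Wilson intervals), with the share expected from all eligible genes weighted to the list's lengths (diamonds). The dotted line is the 19.9% of all eligible genes, and the list of ion channels and synapse genes is the lowest at 8.11%.

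The DNA at the summits was rich in A and T and flanked by DNA richer in G and C, as the window of Gug printed above shows. The summit with 50 bases to each side had a mean G+C content of 31.8%, against 45.5% and 44.5% in windows 300 bp to the left and right. Windows of the same width tiled over all accepted sequence had a mean of 40.2%. The summit was below the mean of its own flanks at 565 members (90.1%) and below both flanks at 506 (80.7%). In steps of 50 bp, G+C was about 40% at 1000 bp from the summit, rose to 46.3% at 200 to 250 bp on the left, and fell to 31.2% next to the summit.

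**Figure D5:**
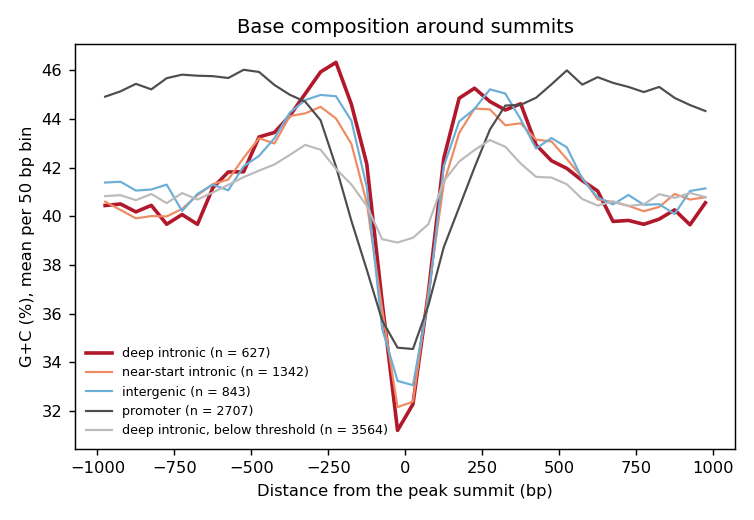
Mean G+C content (y axis, percent) in 50 bp bins by distance from the summit (x axis, bp) for 4 classes of thresholded peaks and for deep intronic peaks below the threshold. Deep intronic peaks have shoulders of up to 46.3% and a centre of 31.2%, a form shared by the other classes and shallow below the threshold.

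The dip was not particular to deep introns. The mean at the summit was 32.3% for near-start intronic, 33.2% for intergenic and 34.6% for promoter peaks, of which 76.4%, 72.6% and 61.0% lay below both flanks. Within deep introns it moved with rank in the pooled list. The summit mean was 31.4% to 32.5% at ranks above the threshold, 34.3% at ranks 5702 to 10000, 38.2% at 10001 to 15000 and 41.4% at 20001 to 25791. In the last group the flanks were at 41.8% and 41.6%, close to the summit value. Whether base composition affected sequencing or peak calling was not tested. Runs of at least 10 A or T occurred in 56.1% of summit windows, 24.4% and 28.4% of the flanks and 35.1% of the tiles.

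The E-boxes and N-boxes known for this protein family were rare at the summits themselves. A match of CACGTG on either strand was found at 3 of 627 summits (0.478%), in msn, CG30089 and Antp, against 1.75% and 1.28% of the flanks and 1.07% of tiles. CACGCG occurred at 4 (0.638%) against 1.75% in each flank and 1.44% of tiles. The N-box CACNAG occurred at 6.86% against 12.9% and 10.4% of the flanks and 10.6% of tiles. Control sequences of the same base content were also rarer at summits, GACGTC at 0 of 627 against 0.876% of tiles, and CCGACG at 0.159% against 1.57%. Not all motifs with G and C were low, and the part of the windows' low G+C in these shares was not tested. A window without a match says nothing on whether the protein was bound there.

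The GATA, homeodomain and STAT sequences were more frequent at the summits than in the flanks 300 bp away. The GATA sequence AGATAA occurred at 64 summits (10.2%, 95% Wilson interval 8.07 to 12.8) against 4.63% and 4.94% of the flanks and 5.86% of tiles. TAATTA occurred at 61 (9.73%) against 5.26%, 4.78% and 7.21%, and the STAT sequence TTCNNNGAA at 27 (4.31%) against 2.55%, 2.23% and 3.09%. Farther out, at up to 900 bp from the summit, AGATAA stayed at or below 8.29%, while TAATTA reached 10.5% and TTCNNNGAA 4.31%, so neither of the latter was highest at the summit alone. Near-start intronic peaks gave similar values of 9.46%, 11.0% and 4.40%. AGATAA and TAATTA are rich in A and T, as are the summit windows, and no control sequence of such base content was searched. The part of base composition in these shares was not tested. The Su(H) site (CGTGGGAA or TGTGGGAA or CGTGAGAA or TGTGAGAA), read by the Notch effector, was found at 8 summits (1.28%), the same share as in each flank. Repeats were less frequent at the summit, with GAGAGAG at 0.797% against 3.67% and 2.39% of the flanks and CACACACA at 0.638% against 5.26% and 4.78%. The M1BP site GGTCACACT was found at 3 summits (0.478%), in hth, hwt and tna, against 0.0491% of tiles. Of 17 motifs in all, 10 were rarer at the summits than in the tiles. DRE, the promoter element TATCGATA, was at 0.159% here and at 3.32% of promoter peaks.

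Deep intronic peaks were found on every large chromosome arm. Density per Mb of accepted sequence was 31.8 on X (155 peaks, 95% Poisson interval 27.0 to 37.2), 25.6 on 2L (105), 22.0 on 3L (117), 19.6 on 3R (160) and 18.5 on 2R (90). Male and female embryos differ in their number of X chromosomes, and the part of this in the density was not tested. Chromosome 4 had 0 deep intronic peaks among its 20 thresholded peaks, in 0.255 Mb of accepted sequence, where a count of 0 has an exact Poisson upper limit of 14.5 per Mb, or 11.8 by the limit of 3 counts. Both limits lie below the 22.7 per Mb over all accepted sequence and the 18.5 on 2R. As a share of the 20 thresholded peaks, however, the limit of 3 counts is 15.0%, above the 11.0% over all arms. Set against its peaks of all classes, chromosome 4 was therefore not shown to be short of deep intronic peaks. The limits rest on little sequence and few peaks and cover the counting of peaks only.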

How the data were processed

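ChIP-seq peak lists on dm6 were used for 1 group of 2 biological replicates, numbered 2 and 3. Per the labels, the authors called peaks for each replicate and for the pooled reads with a control, and thresholded the pooled list by IDR. Aligner and peak caller: not given in the sources used here. The deposited score of each peak (signal) is the authors' enrichment value on a scale set within each list. The deposited −log10 q values of the authors were not used. The thresholded list holds the 5701 strongest of 25791 pooled peaks, and the replicate lists hold 30000 and 24781. The first is a round number and may be a cap on the list, in which case shares of replicate 2 cover its strongest peaks only. No list gives read counts, so the depth is unknown.

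Genes came from Ensembl release 115 on X, 4 and the arms of chromosomes 2 and 3, without transposable elements, and sequence from the RefSeq genome of the same assembly. Coordinates are 1-based. Peaks were classed by summit as promoter (within 500 bp of a TSS), exonic, near-start intronic, deep intronic or intergenic. Shares carry Wilson intervals and densities exact Poisson intervals at 95%, which cover the sampling of peaks or genes only. With 1 group, no p-values were computed. Motifs were searched within 50 bp of the summit on both strands, beside windows of that width 300 bp away and 264934 tiles of accepted sequence. Of 424 gene list entries, 413 matched by symbol and 8 by synonym, and 3 matched nothing.

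The text names the 20 strongest members, the 10 hosts with most peaks, up to 4 hosts and up to 3 eligible genes without a peak per list, the 5 peaks nearest the distance limit on each side, and up to 5 strongest members missing from each replicate. Other named items, the wider Gug window, the length weighting, the densities by distance from a TSS and the base composition by rank were chosen after values were seen. The results of 1 gene list are not reported here. The members and lists were chosen with earlier results of these data known. Alternatives changed the distance limit, the annotation, the list, the matching rule, the position of a peak and the motif window. Scripts were tested on simulated data and used Python 3.11.15, NumPy 2.4.6, pandas 2.3.3 and SciPy 1.17.1.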

Additional observations from a re-analysis of the deposited data

How the results depend on the processing

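The distance limit and the list set the numbers most. With a limit of 2000 bp there were 1158 deep intronic peaks in 594 hosts at 28.6 per Mb, and with 10000 bp 277 in 161 hosts at 16.5 per Mb with a median signal of 154. In the strongest 2850 peaks there were 251 in 175 hosts at 9.10 per Mb, with a median signal of 267 and matches of 100% in replicate 2 and 98.4% in replicate 3. Matching within 50 bp gave 90.9% and 85.2%, within 200 bp 99.8% and 99.7%, by any overlap 100% and 99.8%, and against each replicate's strongest 5701 peaks 88.2% and 84.4%. Reading transposable elements as exons and start sites, an alternative chosen after seeing the data, gave 26.5 per Mb. Leaving out 1 replicate gave 606 to 633 peaks, 340 to 354 hosts, a median signal of 164 to 169, 10 to 12 of 17 motifs rarer at summits than in tiles, 11 lists above the share of all eligible genes, and a summit G+C 12.5 to 13.0 points below the flanks. Of 80 values for single gene lists under alternatives, 69 stayed within the interval of the main share, 1 was higher and 10 were lower. No paired analysis was possible because the series has only 1 group. With no read counts, weak peaks missing from a list cannot be told from absent binding.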
